A study of Mus musculus with 18 samples.

Results

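Keratins are the intermediate filament proteins of epithelial cells, and 8 keratin genes of mammary epithelium are described here in 18 mammary tumors of mice. Krt5, Krt14, Krt15 and Krt17 are the basal keratins, and Krt7, Krt8, Krt18 and Krt19 are the simple keratins of luminal cells. They were taken by gene symbol, as written behind the Ensembl number in each gene ID of the deposited tables, and each symbol matched 1 of the 55450 genes listed. The tumors came from 14 Cbfb(het) mice, 1 Cbfb(homo) mouse and 3 Cbfb(wt) mice, 1 tumor per mouse. Every mouse, the Cbfb(wt) ones included, carried the MMTV-Cre transgene and 1 Pik3ca allele with the activating H1047R change, which the labels spell "Pikca". The MMTV promoter drives Cre recombinase in mammary epithelium. The labels call the tumors spontaneous, name no treatment, batch or age, and do not say which part of Cbfb, the partner subunit of the RUNX transcription factors, was altered. Cbfb stood at 12.8 to 71.1 TPM (transcripts per gene as a share of the library's total, corrected for gene length) in Cbfb(het) tumors, with a median of 27.9 TPM. It stood at 10.8 TPM in the Cbfb(homo) tumor and at 12, 22.1 and 35.7 TPM in Cbfb(wt) tumors, so the ranges of Cbfb(het) and Cbfb(wt) tumors overlapped.

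A keratin filament is built from pairs of 1 type II and 1 type I keratin, and a keratin without a partner is degraded. Krt5 pairs with Krt14 in the basal layer of stratified epithelia and in the basal, myoepithelial layer of the mammary gland. Krt8 pairs with Krt18 in the luminal layer, where Krt7 and Krt19 are also made, and the ratio of basal to simple keratins is a common way to describe the lineage of a mammary tumor. Krt15 is a type I keratin of basal keratinocytes, and Krt17 is a type I keratin of hair follicles, basal cells and wounded epidermis. The type II genes Krt5, Krt7 and Krt8 lie on chromosome 15 together with Krt18, a type I gene that sits 23.7 kb from its partner Krt8. The type I genes Krt14, Krt15, Krt17 and Krt19 lie on chromosome 11, where Krt19 lies 4.88 kb from Krt15. All are protein-coding genes, and positions are those of GENCODE M21 on the GRCm38 (mm10) build.

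Promoter windows were matched in the RefSeq tables (GRCm38.p6) for some of the 8 genes, and a stretch is shown for Krt5, Krt7 and Krt18 only. The window of Krt14 belongs to a start inside the gene and is left out. Windows run from 250 bases before to 50 bases after the RefSeq start. The E-box CACCTG, read on either strand and so also written CAGGTG, is a sequence that the zinc finger proteins Zeb1, Zeb2, Snai1 and Snai2 bind. It is shown because Zeb1 RNA marks the tumors that stand apart below. Each of the 3 windows shown held 1 match, with the E-box in capitals in these 30-base stretches, written 5′ to 3′ on the gene's strand.

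Krt5, chr15:101713016-101713045, minus strand: cacaccactgtgCAGGTGtgctgggtgagc

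Krt7, chr15:101412347-101412376, plus strand: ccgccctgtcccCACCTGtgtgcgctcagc

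Krt18, chr15:102027990-102028019, plus strand: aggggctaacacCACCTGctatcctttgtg

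The E-box began 128 bases before the RefSeq start in Krt5, 44 in Krt7 and 214 in Krt18. In Krt7 it lies in an exon of a longer GENCODE transcript. The same 6 letters occurred in 20.2% of 32851 promoter windows, so a match in 1 of these genes describes its sequence and not a bound site. Among the other motifs searched on both strands, the GC box GGGCGG (35.7% of windows) matched 4 times in Krt7 and in neither of the other windows shown. The AP-1 site TGANTCA (7.81% of windows) and the grainyhead site AACNGGTT (2.09% of windows) matched none of the 3.

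Depth was even, at 33210207 to 40974130 rounded expected counts per tumor, but 5 tumors stood apart in epithelial RNA. Epcam, an epithelial adhesion protein, was under 200 TPM in Cbfb(het) 1 (75.1 TPM), Cbfb(het) 10 (26.4 TPM), Cbfb(het) 12 (133 TPM), Cbfb(het) 14 (27.2 TPM) and Cbfb(wt) 2 (5.60 TPM). It was 331 to 666 TPM in the other 13. Vim, the intermediate filament of mesenchymal cells, was 2771 to 3846 TPM in those 5 tumors and 135 to 827 TPM in the others, and Zeb1 was 13.1 to 60 TPM against 0.330 to 7.44 TPM. In bulk RNA, fewer epithelial cells and less keratin RNA per cell cannot be told apart. Cbfb(het) 10 and Cbfb(het) 14 were far closer to each other than any other tumors: over 16196 genes their counts differed by a chi-square of 4.18 per degree of freedom, against 85.9 for the next closest pair. That is above sampling noise, and the labels give them as tumors of separate mice, so they were kept as 2 samples. Pieces of 1 tumor could also differ by more than sampling noise, so these counts do not show whether they are independent, and the comparisons of groups are also given with them as 1 sample and without them.

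Each basal keratin varied widely over the tumors, least for Krt14 (87.6-fold) and most for Krt17 (731-fold), and Krt14 was the highest of the 4 in 17 of 18 tumors. Krt14, the type I partner of Krt5, stood between 121 TPM in Cbfb(het) 1 and 6274 TPM in Cbfb(het) 11, with a median of 2785 TPM over the 14 Cbfb(het) tumors. It was 10567 TPM in the Cbfb(homo) tumor and 5132, 779.9 and 1098 TPM in Cbfb(wt) tumors 1, 2 and 3. All 3 Cbfb(wt) values lay inside the Cbfb(het) range, and the Cbfb(homo) value lay above it. Krt5, the type II basal keratin, ran from 49.3 TPM in Cbfb(het) 12 to 3603 TPM in Cbfb(het) 14, with a Cbfb(het) median of 743 TPM. It was 5352 TPM in Cbfb(homo) 1 and 1554, 273 and 406 TPM in the Cbfb(wt) tumors, which again fell within the Cbfb(het) range. In Cbfb(het) 4, with 423 TPM of Krt5 and 346 TPM of Krt14, Krt5 was the highest basal keratin, which held for no other tumor.

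Krt17 was at about the level of Krt5, with a median Krt5 to Krt17 ratio of 1.07, while Krt15 was the lowest of the 4 in every tumor. Krt17 had the widest range of the 8 genes. It stood at 8.70 TPM in Cbfb(het) 12 and 2129 TPM in Cbfb(het) 9, with a Cbfb(het) median of 684 TPM, at 6360.3 TPM in Cbfb(homo) 1, and at 1583, 231 and 284 TPM in Cbfb(wt) tumors 1, 2 and 3. Krt15 ran from 3.44 to 211 TPM in Cbfb(het) tumors with a median of 78.0 TPM, and stood at 417 TPM in Cbfb(homo) 1 and at 66.0, 3.59 and 41.1 TPM in the Cbfb(wt) tumors. Its 5 lowest values, up to 8.55 TPM, were those of the 5 tumors with low Epcam, and the other 13 held 31.5 to 417 TPM. It therefore parted from Krt5 and Krt14 in Cbfb(het) 10 and Cbfb(het) 14, where it was 8.55 and 7.16 TPM beside 3516 and 3603 TPM of Krt5. Krt15 made up 0.069% of the basal keratin sum in Cbfb(het) 14 and 9.59% in Cbfb(het) 4, the lowest and highest shares.

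**Figure D1:**
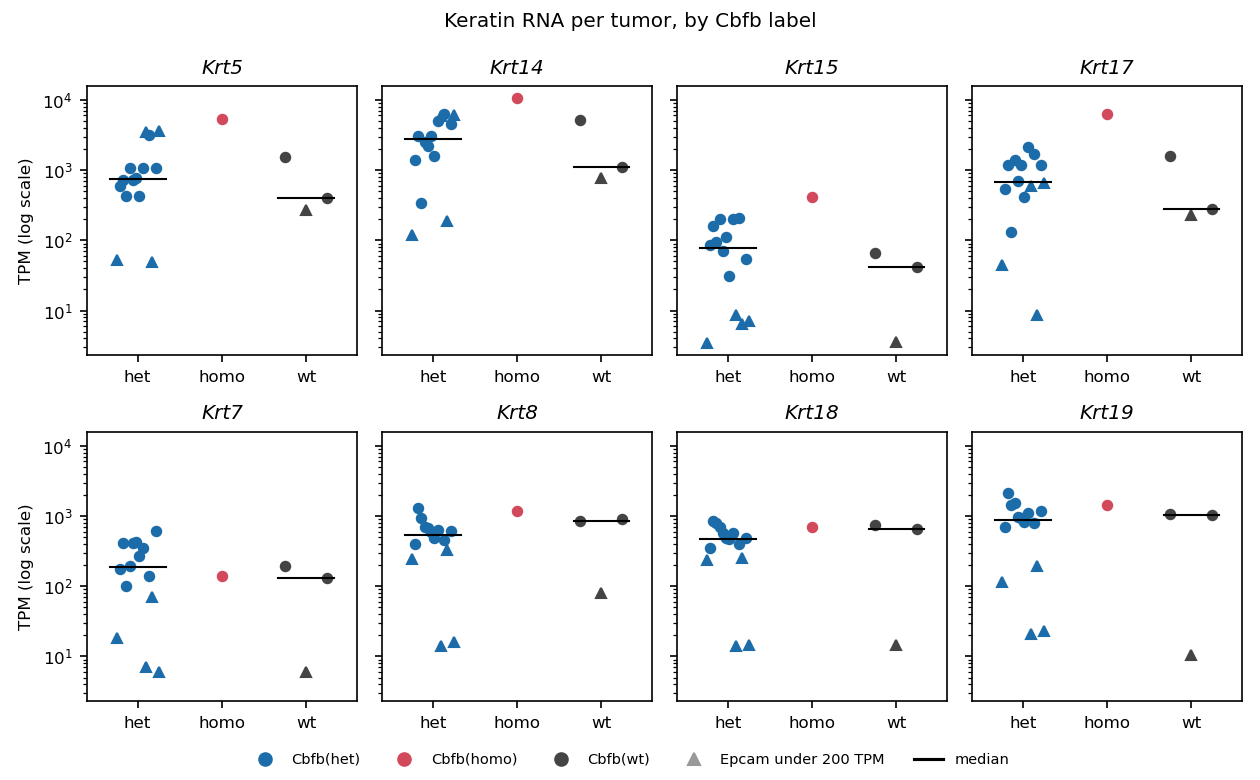
TPM of each of the 8 keratins in every tumor on a log axis, with Cbfb(het), Cbfb(homo) and Cbfb(wt) tumors from left to right in each panel, a line at the median of a group and triangles for the 5 tumors with Epcam under 200 TPM. The Cbfb(homo) tumor is the highest point in all 4 basal panels, and the triangles hold the lowest values of the simple keratins.

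Among the simple keratins Krt19 was highest in 15 tumors and Krt8 in the other 3. Krt19, a type I keratin of simple epithelia, ran from 20.8 TPM in Cbfb(het) 10 to 2127 TPM in Cbfb(het) 3, with a Cbfb(het) median of 889 TPM. It stood at 1440 TPM in Cbfb(homo) 1 and at 1053, 10.5 and 1049 TPM in Cbfb(wt) tumors 1, 2 and 3. Cbfb(wt) 2 was thus the lowest of the 18, while the other Cbfb(wt) tumors were above the Cbfb(het) median. Krt8, the main type II keratin of simple epithelia, ran from 14.3 TPM in Cbfb(het) 10 to 1314 TPM in Cbfb(het) 3, with a median of 538 TPM, and stood at 1170.5 TPM in Cbfb(homo) 1 and 858, 79.3 and 914 TPM in the Cbfb(wt) tumors. Krt18, its type I partner, ran from 13.9 to 860.2 TPM in the same Cbfb(het) tumors, with a median of 474 TPM, and stood at 704 TPM in Cbfb(homo) 1 and 748, 14.7 and 648 TPM in the Cbfb(wt) tumors. Krt7, a type II keratin of ducts and glands, was the least of the 4 in most tumors: 5.99 to 607 TPM with a median of 186 TPM in Cbfb(het) tumors, 139.6 TPM in Cbfb(homo) 1, and 196, 5.94 and 132 TPM in the Cbfb(wt) tumors.

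Outside the 5 tumors with low Epcam the sum of the simple keratins was more even than that of the basal keratins. The sum of the 4 simple keratins ran from 1626 to 4712 TPM over those 13 tumors, a 2.90-fold range. Krt7 alone ran more widely, from 100 to 607 TPM. The basal sum ran from 995 TPM in Cbfb(het) 4 to 22696 TPM in Cbfb(homo) 1 over the same tumors, a 22.8-fold range. Over the 10 Cbfb(het) tumors among them it was 11.3-fold. Epcam, which sets these 13 tumors apart, was itself among the 5 genes nearest to Krt19 over all 18 tumors. With all 18 tumors the ranges were 83.9-fold for the simple sum and 102-fold for the basal sum. The simple sum was at most 847 TPM in the 5 tumors with low Epcam. Their basal sums had no common level: 221 TPM in Cbfb(het) 1, 253 TPM in Cbfb(het) 12, 9932 TPM in Cbfb(het) 10, 10371 TPM in Cbfb(het) 14 and 1287 TPM in Cbfb(wt) 2.

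**Figure D2:**
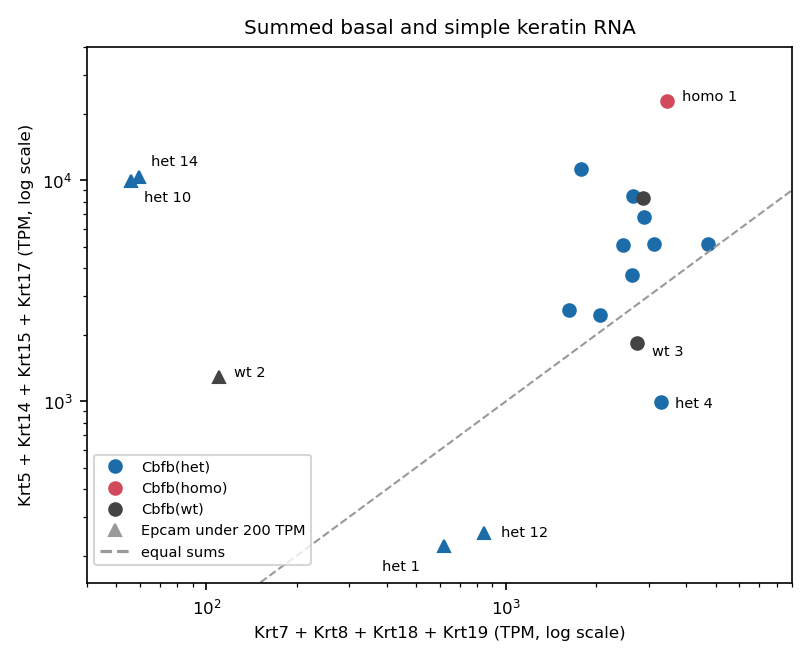
Summed TPM of Krt5, Krt14, Krt15 and Krt17 (vertical axis) against summed TPM of Krt7, Krt8, Krt18 and Krt19 (horizontal axis), both on log axes, 1 point per tumor, with a dashed line where the sums are equal. In 13 tumors the simple sum lies between 1626 and 4712 TPM, and Cbfb(het) 10 and 14 lie far to the upper left at 56.2 and 59.6 TPM.

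The balance of a tumor was taken as the log2 of the basal sum over the simple sum, a ratio within 1 library that no scaling between libraries can move. The basal sum was the larger in 14 of 18 tumors, namely in 11 of 14 Cbfb(het) tumors, in the Cbfb(homo) tumor and in 2 of 3 Cbfb(wt) tumors. Over Cbfb(het) tumors 1 to 7 the balance was -1.49, 0.67, 0.13, -1.72, 0.73, 0.50 and 1.06. Over Cbfb(het) tumors 8 to 14 it was 0.26, 1.68, 7.47, 2.66, -1.74, 1.23 and 7.44. It was 2.72 in Cbfb(homo) 1, with 3 tumors above it, and 1.55, 3.54 and -0.58 in Cbfb(wt) tumors 1, 2 and 3. The extremes at the basal end were Cbfb(het) 10 and 14, whose basal sums were 177 and 174 times their simple sums. At the simple end, the simple sum exceeded the basal sum 3.34-fold in Cbfb(het) 12, 3.30-fold in Cbfb(het) 4, 2.81-fold in Cbfb(het) 1 and 1.5-fold in Cbfb(wt) 3.

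**Figure D3:**
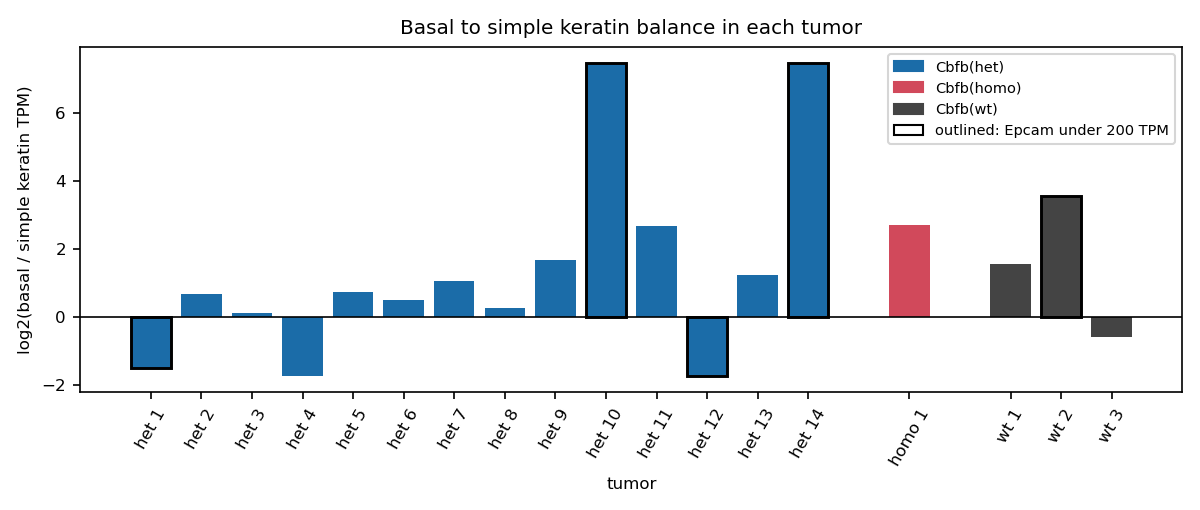
Balance of each tumor as log2 of the basal over the simple keratin sum in TPM, with outlined bars for the 5 tumors with Epcam under 200 TPM. Bars above 0 mark the 14 tumors with more basal than simple keratin RNA, and Cbfb(het) 10 and 14 stand at 7.47 and 7.44 while the 13 tumors with more Epcam lie between -1.72 and 2.72.

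All 3 Cbfb(wt) tumors lay within the Cbfb(het) range of the balance. The 14 Cbfb(het) tumors had a mean balance of 1.35 ± 2.88 (SD) and the 3 Cbfb(wt) tumors one of 1.5 ± 2.06 (SD), a difference of -0.15 against a pooled SD of 2.78. Without the 5 tumors with low Epcam, the 10 Cbfb(het) tumors left had a mean of 0.72 ± 1.14 (SD) and the 2 Cbfb(wt) tumors one of 0.48 ± 1.51 (SD). The difference turned on which tumors were kept: it was -0.62 with Cbfb(het) 10 and 14 as 1 sample, -1.17 without them and 0.24 without the 5 tumors with low Epcam. Without Cbfb(wt) 2 it was 0.87 and without Cbfb(wt) 3 it was -1.20. All were smaller than the pooled SD of 2.78, a spread between tumors of the full groups that Cbfb(het) 10 and 14 widen. That SD is not the error of a difference in means, so it does not show that the difference is stable. No p is given for a score over genes chosen with their values known.

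Other markers sorted the extreme tumors along more than 1 line. Cbfb(het) 10 and 14 had 132 and 131 TPM of Trp63, the p53 relative that specifies basal cells, levels not theirs alone, since Cbfb(het) 11 had 139.9 TPM, Cbfb(homo) 1 had 118 TPM and Cbfb(wt) 1 had 108 TPM. They summed 2614 and 2701 TPM over 11 non-keratin genes of basal adhesion and identity, while the other 16 tumors had 233 to 1382 TPM. Their sum over 14 non-keratin luminal genes was 115 and 116 TPM, next to 49.5 TPM in Cbfb(wt) 2 and 219 to 2041 TPM in the rest. Their milk genes summed to 1.07 and 0.98 TPM, and Csn2, which encodes a casein, was listed at 0 in Cbfb(het) 10. Their 6 fibroblast genes summed to 20699 and 20798 TPM, the highest of the 18. Cbfb(het) 1 and Cbfb(het) 12, at the simple end of the balance, had 2.26 and 10.5 TPM of Trp63. Their sums over the 14 luminal genes were low too, at 219 and 367 TPM, against 882 to 2041 TPM in the 13 tumors with more Epcam. Cbfb(het) 1 and Cbfb(het) 12 had the 2 highest sums over 8 contractile genes among Cbfb(het) tumors, 1424 and 1338 TPM. Acta2 alone gave 883 and 638 TPM of these sums, and not all 8 genes were high in these tumors. Cbfb(het) 1 and Cbfb(het) 12 also had low sums over 15 genes of suprabasal and squamous epithelium and skin, at 165 and 57.5 TPM. Cbfb(het) 4, also at the simple end, had the next lowest such sum, 407 TPM, beside 115312 TPM of milk genes, the highest of the 18 tumors. The part of skin, stroma or milk-producing cells in the balance was not tested.

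The partner genes were measured against each other as the SD over tumors of their log2 TPM ratio, set beside all 28 pairs of the 8 genes. Krt8 and Krt18 kept the most constant ratio of the 28, with an SD of 0.55. Krt5 and Krt14 came next with 0.63, and the type I simple keratins Krt18 and Krt19 followed with 0.64, ahead of Krt7 and Krt19 with 0.86. The 16 pairs of a basal with a simple keratin had SDs of 1.27 to 2.91. Pairs were ranked after the values of these genes were known, so the order is a description.

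Krt8 exceeded Krt18 in every tumor, by 1.01-fold in Cbfb(het) 5 to 1.66-fold in Cbfb(homo) 1 over 17 tumors and by 5.42-fold in Cbfb(wt) 2. Krt8 thus made up 71.8% of the simple keratin sum in Cbfb(wt) 2. Without that tumor the SD over the remaining 17 was 0.20, and over the 14 Cbfb(het) tumors it was 0.16, so 1 library sets most of the spread of this pair. Among the tumors with little Krt8, Cbfb(het) 10 and 14 kept ratios of 1.03 and 1.11 at 14.3 and 16.2 TPM of Krt8. Reads of Krt8 were in part shared with other genes by the counting, since its expected count was not whole in any of the 18 tumors. Its listed pseudogene Krt8-ps held 0.0989% to 0.375% as many counts as Krt8. The antisense transcript Gm36026, which overlaps the 5′ end of Krt8, held at most 1.62% as many. That was in Cbfb(wt) 2, the tumor with the 5.42-fold ratio, and the next highest share was 0.184% in Cbfb(het) 12. The part of this overlap in the ratio was not tested, and whether strand was used in counting is not given in the sources used here.

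Krt14 exceeded Krt5 in 17 tumors. Krt5 stood at 0.213 times Krt14 in Cbfb(het) 9 and 1.22 times in Cbfb(het) 4, with a median of 0.36 over the 18. The ratio was 0.604 and 0.591 in Cbfb(het) 10 and 14, 0.506 in Cbfb(homo) 1 and 0.303, 0.350 and 0.370 in Cbfb(wt) tumors 1, 2 and 3. Expected counts of Krt5 and Krt14 were not whole in any of the 18 tumors, and those of Krt17 in 15, so part of their reads was split with similar genes. Krt7 was below Krt19 throughout, at 0.0691 times Krt19 in Cbfb(het) 4 and 0.566 times in Cbfb(wt) 2. Krt17 kept closer to Krt14 (SD 0.92) than to Krt5 (SD 1.12), and Krt14 exceeded it 1.66-fold in Cbfb(homo) 1 and 21.7-fold in Cbfb(het) 12.

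Krt15 did not keep to the basal class by this measure. The SD of its log2 ratio was 1.27 with Krt19, its neighbor on chromosome 11, and 1.94 with Krt14 and 2.02 with Krt5. Without the 5 tumors with low Epcam the order changed: the SD was 0.81 with Krt5, 1.17 with Krt14 and 0.98 with Krt19. Over those 13 tumors the ratio of Krt8 to Krt18 had an SD of 0.21 and that of Krt5 to Krt14 an SD of 0.68, rank 5 of the 28.

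**Figure D4:**
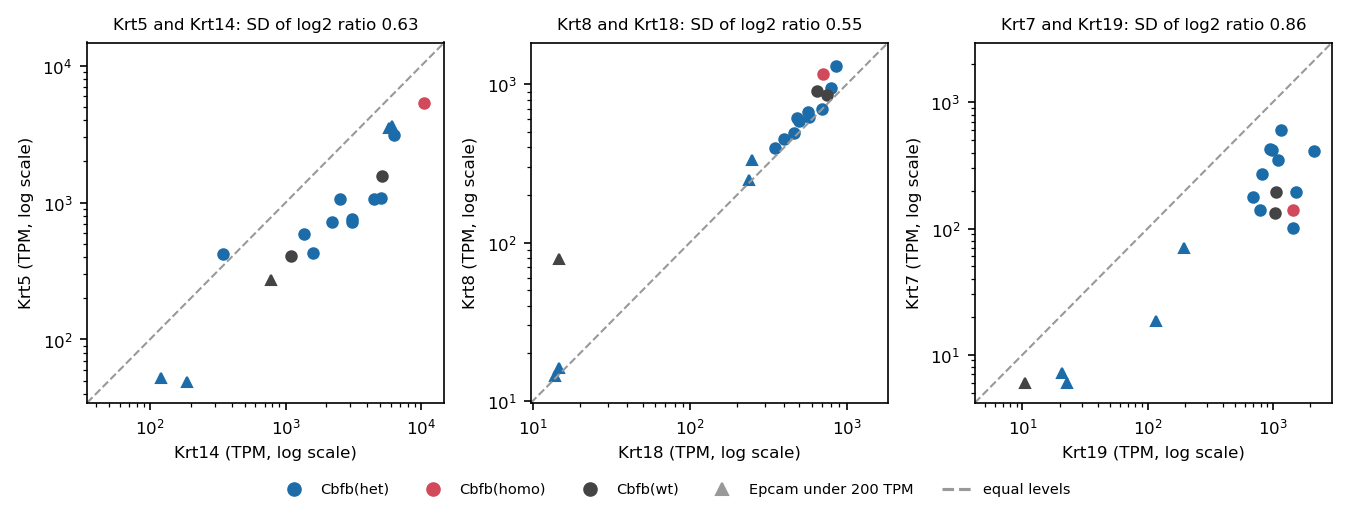
TPM of the type II keratin (vertical axis) against its type I partner (horizontal axis) in each tumor for Krt5 and Krt14, Krt8 and Krt18, and Krt7 and Krt19, on log axes with a dashed line at equal levels. Krt8 and Krt18 follow that line closely except in Cbfb(wt) 2, Krt5 lies below Krt14 except in Cbfb(het) 4, and Krt7 lies below Krt19 in all 18 tumors.

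**Figure D5:**
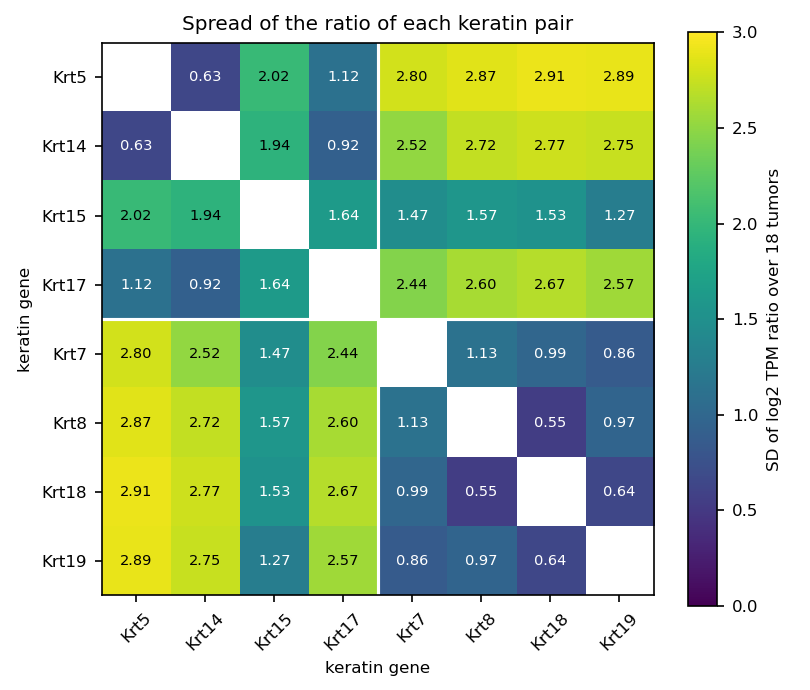
SD over the 18 tumors of the log2 TPM ratio for all 28 pairs of the 8 keratins, as a grid of genes with darker cells for smaller SDs and white lines between basal and simple keratins. The partner pairs stand at 0.55, 0.63 and 0.86, and the pairs of a basal with a simple keratin run from 1.27 to 2.91. Pairs within the basal class reach 2.02 and overlap that range.

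The genes that followed each keratin most closely were sought among all 13073 genes with a mean log2 CPM (a depth-scaled count) of at least 1, by the SD over the 18 tumors of the difference in log2 CPM. Krt18 was the nearest gene to Krt8, and Krt8 the nearest to Krt18, with an SD of 0.55. Both places held without the 5 tumors with low Epcam, among 13171 genes and with an SD of 0.21. The next genes for Krt8 included Gata3, Rab17 and Arhgap8, and for Krt18 they were Gata3, Krt19, St14 and Arhgap8. Gata3 is the transcription factor of luminal fate, with SDs over all 18 tumors of 0.65 to Krt8 and 0.61 to Krt18, and St14 is the epithelial protease matriptase. Unlike the partner places, these next places rested on the 5 tumors with low Epcam. Without them, only Krt19 of these next genes was among the 5 nearest to Krt8 or Krt18.

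Krt14 took place 4 among the genes nearest to Krt5, after 4631405K08Rik, Plch2 and Trp63 and before Ndufa4l2. Krt5 came next for Krt14 after the desmosome genes Pkp1 and Dsp and before Ly6d and Bmp7. The SD between Krt5 and Trp63 was 0.63 and that between Krt14 and Pkp1 was 0.55. These places rested on the 5 tumors with low Epcam: without them Krt14 was 336th for Krt5 and Krt5 was 80th for Krt14. Krt19 was 51st for Krt7 and Krt7 was 49th for Krt19, and these places were 7057th and 11429th without those tumors. Krt7 was nearest to Prss8, Tjp3, Bicdl2, Bnipl and Camsap3, of which Prss8 is an epithelial protease and Tjp3 a tight junction scaffold. Krt19 was nearest to St14, Epcam, the tight junction gene Cldn7, the sodium channel subunit Scnn1b, and Krt18. Without the 5 tumors with low Epcam, none of the genes named for Krt5 or Krt7 stayed among the 5 nearest. Of those named for Krt14 only Ly6d stayed, and of those named for Krt19 only Krt18.

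None of the 8 keratins passed the test between Cbfb(het) and Cbfb(wt) tumors, and none of the 18475 genes tested did (0% called by edgeR's quasi-likelihood test at an adjusted p under 0.05). At an unadjusted p under 0.05, 1.46% of genes were higher and 1.91% lower in Cbfb(het) tumors, 623 genes in all, and none of the 8 keratins was among them. The number of genes called was 0 by DESeq2 and by limma-voom too, while 932 and 489 had an unadjusted p under 0.05. The log2 fold changes (Cbfb(het) over Cbfb(wt)) of the basal keratins were 0.87 ± 0.98 (SE) for Krt5, 0.54 ± 0.92 for Krt14, 1.49 ± 1.18 for Krt15 and 0.47 ± 1.00 for Krt17. Those of the simple keratins were 1.32 ± 1.21 for Krt7, 0.01 ± 0.91 for Krt8, 0.15 ± 0.97 for Krt18 and 0.50 ± 1.15 for Krt19. Every adjusted p from edgeR was 0.999. The median of the 8 was 0.52, beside 0.03 over all genes, of which 53.2% had a positive value.

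Levels show how wide the groups were. For Krt14 the mean log2 CPM was 10.98 ± 1.91 (SD) over 14 Cbfb(het) tumors and 10.63 ± 1.44 (SD) over 3 Cbfb(wt) tumors. For Krt8 it was 8.77 ± 2.05 over the Cbfb(het) and 8.82 ± 2.05 over the Cbfb(wt) tumors. The 95% interval of the log2 fold change was -1.26 to 2.34 for Krt14 and -1.78 to 1.8 for Krt8, so a 3-fold change in either direction lies inside the interval of Krt8. Without Cbfb(het) 10 and 14 the log2 fold change was 0.31 for Krt5 and 0.27 for Krt14, and without the 5 tumors with low Epcam it was 0.15 for Krt5 and 0.10 for Krt14. For Krt8, Krt18 and Krt19 the sign of the fold change turned on single tumors: without Cbfb(wt) 2 it was -0.42 for Krt18 and -0.07 for Krt19, and over 17 fits that each left out 1 tumor Krt8 ran from -0.51 to 0.46.

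The Cbfb(homo) tumor had the highest level of all 4 basal keratins and of none of the simple ones. It lay above the highest of the other 17 tumors by 0.47 log2 CPM for Krt5, 0.70 for Krt14, 0.78 for Krt15 and 1.3 for Krt17. Over all genes, 4.74% of 20328 were highest in this tumor and 3.44% lowest. Of the other 17 tumors, 15 lay below it for Krt8, 14 for Krt19, 12 for Krt18 and 6 for Krt7. With 1 tumor of this genotype there is no replicate and no test. Its sum over the 8 contractile genes, 1724 TPM, was also the highest of the 18. Of these genes only Tagln and Myh11 were highest in this tumor, and Acta2 was 821 TPM beside 883 TPM in Cbfb(het) 1. The sums of Cbfb(homo) 1 over basal adhesion genes (1382 TPM) and skin and squamous genes (18854 TPM) each had 2 tumors above them. The part of these lists in its keratin levels was not tested.

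Gene lists around the keratins also gave no call between Cbfb(het) and Cbfb(wt) tumors. All 11 genes of basal adhesion and identity had positive log2 fold changes, with a median of 0.45, among them Lamb3, a chain of the laminin under basal cells, at 1.41 ± 1.03 (SE). The 8 contractile genes, also positive throughout, had a median of 1.44, and Acta2, smooth muscle actin, stood at 1.01 ± 0.85. A positive value was found for 11 of 14 luminal genes (median 0.36), and Elf5, the factor of alveolar luminal cells, stood at 0.10 ± 1.28. Of 15 linkers and desmosome genes, which tie keratins to junctions, 10 were positive (median 0.12), and Dsp, the desmoplakin gene, stood at 0.04 ± 0.94. None of these genes passed the test, and the adjusted p of edgeR was 0.999 for each gene named here.

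Lists of other cell types, again with 0 calls, had medians both smaller and larger than these. Of 8 epithelial genes 6 were positive (median 0.13), of 7 mesenchymal genes 3 (median -0.25) and of 6 fibroblast genes 4 (median 0.95). The suprabasal, squamous and skin list had 11 of 15 positive (median 0.52) and the hair follicle list 10 of 10 (median 2.02). All 4 adipocyte genes (median 4.95), all 3 skeletal muscle genes (median 7.59) and all 4 milk genes (median 0.87) were positive, as were 3 of 5 leukocyte genes (median 0.03) and 2 of 3 endothelial genes (median 0.08). The skeletal muscle value does not describe the Cbfb(het) tumors as a group. Their muscle sum was 2767 TPM in Cbfb(het) 5 but had a median of 3.34 TPM, beside 0.93 to 21.4 TPM in Cbfb(wt) tumors. Of 8 further keratins tested, 7 were positive (median 1.42), among them Krt80 at 1.05 ± 1.25 and Krt23 at 1.78 ± 1.18. The adipocyte gene Plin1 was listed at 0 in 2 of 3 Cbfb(wt) tumors, and the part of these cell types in the keratin values was not tested.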

How the data were processed

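RNA of 18 mouse mammary tumors, 1 per mouse, was read from the table of each tumor. The deposited expected counts are RSEM's estimates per gene, per the file headers, and are not normalized. TPM, also deposited by the authors, corrects for length and sums alike in every library, which removes depth. Tools named in the submitters' processing notes are RSEM 1.3.1 and STAR 2.7.0f, with build mm10. All 55450 gene IDs occur in GENCODE M21. Libraries were made with a TruSeq stranded mRNA kit, per the labels.

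Expected counts were rounded to whole numbers. Cbfb(het) and Cbfb(wt) tumors were compared with edgeR 4.0.16 in R 4.3.3 (filterByExpr, TMM, robust quasi-likelihood F-test, Benjamini-Hochberg over 18475 genes, threshold 0.05). The SE of a log2 fold change was computed as |log2 fold change|/√F, and its 95% interval is a normal one. Log2 CPM used a prior count of 2. The fit was tested on simulated data. Alternatives included DESeq2 1.42.0 and limma 3.58.1. Depth was 33210207 to 40974130 rounded counts per tumor. The labels number every tumor alike, so tumors are numbered in accession order.

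The 8 keratins, the lists and the comparisons were chosen with earlier results of these data known. Named genes are the 8 keratins, the 5 genes nearest to each of Krt5, Krt14, Krt7, Krt8, Krt18 and Krt19, and up to 4 genes of a list by highest mean level; some items are not reported here. Trp63, Zeb1, Krt8-ps, Gm36026, Krt6b, Krt1 and Krt10, the motifs and the limit of 200 TPM for Epcam were chosen after values were seen.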

Additional observations from a re-analysis of the deposited data

How the results depend on the processing

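No paired analysis was possible because the labels give every tumor the same repeat number and no litter or shared origin. None of the 8 keratins passed an adjusted p of 0.05 in any of 26 alternative settings, where the lowest adjusted p was 0.777. The count of genes called lower was 0 in the reported fit, 1 without a filter on low counts and 1 with all 18 tumors in the fit. Krt8 turned to -0.053 with limma-voom. With Epcam as a covariate Krt8 was -0.94, Krt18 -0.21, Krt19 -0.23 and Krt7 -0.024, while Krt15 was 0.45 and Krt17 0.24. Without the 5 tumors under 200 TPM of Epcam, an alternative added after the data were seen, Krt8 was -0.17, Krt18 -0.081, Krt5 0.15, Krt14 0.10 and Krt19 0.33. With limma-voom Krt5 was 0.50, Krt14 0.35, Krt17 0.19, Krt18 0.78 and Krt19 1.27. Without Cbfb(het) 10 and 14, also added then, Krt5 was 0.31, Krt14 0.27, Krt8 0.18 and Krt18 0.32, and with the pair as 1 sample Krt8 was 0.11 and Krt18 0.25. The cause was not tested. Leaving out 1 tumor at a time gave log2 fold changes of -0.51 to 0.46 for Krt8 (reversed in 7 of 17 fits), -0.42 to 0.60 for Krt18, -0.073 to 0.98 for Krt19, 0.47 to 1.97 for Krt5, 0.12 to 1.82 for Krt14, 0.94 to 2.16 for Krt15, 0.05 to 1.88 for Krt17 and 0.76 to 2.03 for Krt7. The difference in balance ran from -1.20 to 0.87 in the same way, was -0.62 with Cbfb(het) 10 and 14 as 1 sample, -1.17 without them and 0.24 without the low-Epcam tumors. It stood at 0.21 for Krt5 and Krt14 against Krt8 and Krt18 alone, 0.062 without Krt19 and -0.67 without Krt8. All were smaller than the pooled SD of the full groups, which is a spread between tumors and not the error of the difference. The SD of the log2 ratio of Krt8 to Krt18 was 0.55 with all 18 tumors, 0.16 in the 14 Cbfb(het) tumors, 0.21 without the low-Epcam tumors and 0.20 to 0.57 when 1 tumor was left out, the lowest without Cbfb(wt) 2. That of Krt5 to Krt14 ran from 0.49 to 0.65 and that of Krt7 to Krt19 from 0.76 to 0.89.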

Other observations

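Other stratified keratins reached or exceeded the level of Krt5, whose Cbfb(het) median was 743 TPM, in many tumors. Krt6a, a type II keratin of wounded epidermis and squamous epithelium, ran from 20.4 TPM in Cbfb(het) 1 to 4438 TPM in Cbfb(het) 11, with a Cbfb(het) median of 1799 TPM, and stood at 6409 TPM in Cbfb(homo) 1 and at 3719, 406 and 596 TPM in Cbfb(wt) tumors 1, 2 and 3. Krt16, a type I keratin often made with it, ran from 1.5 TPM in Cbfb(het) 12 to 4011 TPM in Cbfb(het) 9, with a median of 1053 TPM, and stood at 3359 TPM in Cbfb(homo) 1 and at 2705, 330 and 481 TPM in the Cbfb(wt) tumors. Krt1 and Krt10, the keratins of the upper epidermis, were highest in Cbfb(het) 11 at 846 and 1970 TPM. In Cbfb(homo) 1, the tumor with the most Krt5 and Krt14, Krt1 was 8.05 TPM and Krt10 was 127 TPM. The Cbfb(het) medians were 15.5 TPM for Krt1 and 55.4 TPM for Krt10, so Krt1 lay below its median and Krt10 above.

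The 5 type I members together exceeded the 3 type II members in all 18 tumors, with a median ratio of 2.7. With Krt6a, Krt6b and Krt16 added, a choice made after the values were seen, the median ratio was 1.49, and the SD of the log2 ratio over tumors was 0.28 in place of 0.42. Krt6a and Krt6b are close copies of each other, so the split of reads between them is uncertain.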
